A study of Mus musculus with 64 samples.

Results

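SOX2 chromatin occupancy was compared between caudal epiblast-like cells (CEpiLCs) and naive embryonic stem cells (ESCs), using the 6 SOX2 chromatin immunoprecipitation (ChIP-seq) libraries of the wild-type line, 3 of each state, out of 60 libraries with a peak list among the 64 samples of the series. Both states came from the same HM1 (129) mouse ESC line, kept in serum and LIF, so 1 genetic background and 1 line stand behind every value. CEpiLCs received 10 ng/ml bFGF and 5 µM LGK974, an inhibitor of WNT secretion, for 2 days, and the GSK3 inhibitor CHIR99021 was added until day 3 to activate WNT signalling. Naive ESCs were held in 2i medium, which contains 3 µM CHIR99021 and 500 nM PD0325901, an inhibitor of MEK. Both groups carry the time label 72 h, a wild-type genotype and no treatment. A GSK3 inhibitor was therefore present in both states, but dose and length of exposure differed. By the paper's methods, CEpiLCs received CHIR99021 at 5 µM and only after the first 2 days, and naive ESCs at 3 µM as part of 2i medium. The states also differed in bFGF, LGK974 and MEK inhibition as well as in developmental stage. All 6 libraries used the same goat antibody against SOX2 on chromatin fixed with Di(N-succinimidyl) glutarate followed by formaldehyde. The peak lists hold no expression values, so cell identity could not be checked against marker transcripts.

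SOX2 is a high mobility group (HMG) box factor that binds short sequences in the minor groove and often acts with a partner factor. In pluripotent cells its best known partner is the POU factor OCT4 (Pou5f1), and the pair binds composite SOX-POU elements at pluripotency genes. Cells of the caudal epiblast, which form the trunk and tail, express the CDX factors, T (Brachyury), Wnt and Fgf ligands and Hox genes, and some of them keep SOX2 while they can still form both spinal cord and paraxial mesoderm.

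The number of peaks called per library ranged from 29298 to 104085 in CEpiLCs and from 107016 to 907862 in naive ESCs, and the longest list was that of naive ESC replicate 1. The libraries were therefore compared through their 20000 strongest peaks by p-value. The median fold over background of these peaks was 5.85, 6.89 and 6.84 in the CEpiLC replicates and 11.7, 8.49 and 7.93 in the naive ESC replicates. Merging them gave 64689 sites. A site was called CEpiLC-only when all 3 CEpiLC lists and no naive ESC list had a peak there, naive ESC-only in the opposite case, and shared when all 6 lists had a peak. CEpiLC-only sites are also called gained and naive ESC-only sites lost, which refers to these lists and not to a count of bound molecules. There were 2440 CEpiLC-only sites (3.77% of all sites), 2424 naive ESC-only sites (3.75%) and 2299 shared sites (3.55%). Most of the others rested on 1 library, with 18719 sites in a single CEpiLC list and 21665 in a single naive ESC list. Without naive ESC replicate 1 there were 2813 CEpiLC-only, 5475 naive ESC-only and 3285 shared sites. With 1 list fewer to meet, the rule was then looser for every class.

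**Figure D1:**
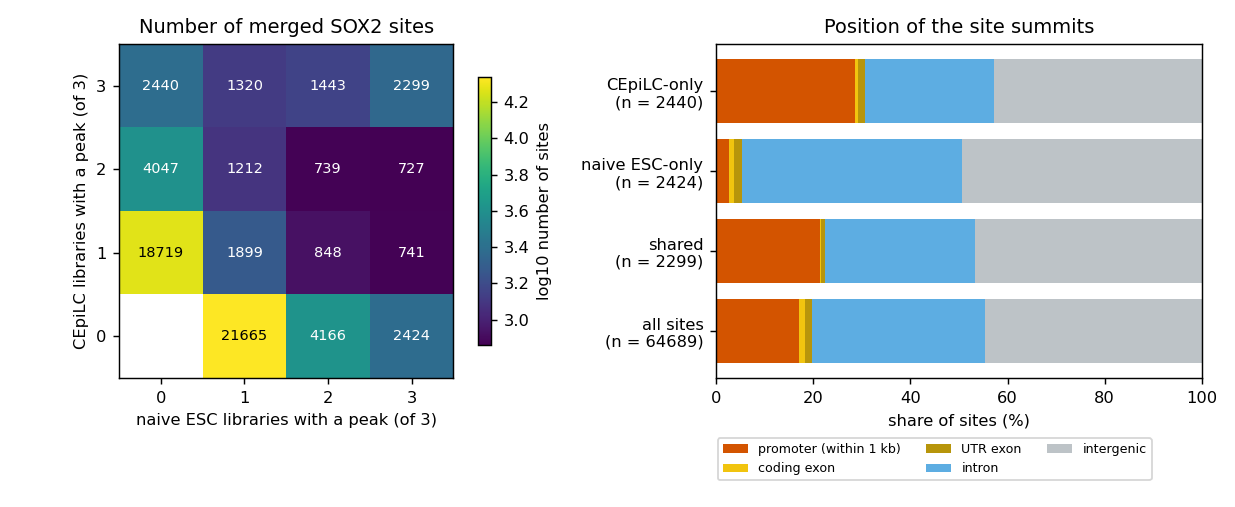
Left, the number of merged SOX2 sites by how many of the 3 naive ESC (x axis) and 3 CEpiLC (y axis) libraries had a peak, coloured on a log10 scale. Right, the share of sites (%) by the position of the summit, for each class and for all sites; promoters hold 28.6% of CEpiLC-only sites and 2.68% of naive ESC-only sites.

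Some of the sites described below are shown by the bases around their summits, to let the recognition words be read beside the signal. They were chosen for the genes they lie near. Each run is 101 bases of the plus strand, 5′ to 3′, of GRCm38 (mm10), taken from the RefSeq assembly. Capitals mark any match, on either strand, to a SOX word (CATTGT or CTTTGT), a POU half-site (ATGCNAA), a TCF word (CTTTGAA or CTTTGAT), a CDX word (TTTATGG or TTTATTG), a T word (GGTGTGA) or an ESRRB word (AAGGTCA).
Cdx2, CEpiLC-only, chr5:147307356-147307456: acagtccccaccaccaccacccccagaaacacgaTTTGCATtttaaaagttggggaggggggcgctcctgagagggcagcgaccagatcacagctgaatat
Mesp1, CEpiLC-only, chr7:79789402-79789502: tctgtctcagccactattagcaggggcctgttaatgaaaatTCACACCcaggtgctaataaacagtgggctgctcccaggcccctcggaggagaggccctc
Lef1, CEpiLC-only, chr3:131118059-131118159: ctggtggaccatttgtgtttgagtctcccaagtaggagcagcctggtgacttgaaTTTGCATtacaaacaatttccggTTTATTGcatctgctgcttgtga
Hoxb4, CEpiLC-only, chr11:96316471-96316571: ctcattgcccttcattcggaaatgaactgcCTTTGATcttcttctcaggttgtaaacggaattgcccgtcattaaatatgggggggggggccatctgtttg
Esrrb, naive ESC-only, chr12:86501806-86501906: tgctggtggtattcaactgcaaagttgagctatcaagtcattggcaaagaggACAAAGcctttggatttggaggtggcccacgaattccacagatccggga
Sp5, naive ESC-only, chr2:70484966-70485066: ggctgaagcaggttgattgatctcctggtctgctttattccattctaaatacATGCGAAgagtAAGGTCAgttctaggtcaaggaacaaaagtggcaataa
Msgn1, naive ESC-only, chr12:11216591-11216691: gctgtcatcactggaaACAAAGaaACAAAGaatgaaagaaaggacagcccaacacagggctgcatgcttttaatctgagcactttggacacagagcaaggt
Nanog, shared, chr6:122707382-122707482: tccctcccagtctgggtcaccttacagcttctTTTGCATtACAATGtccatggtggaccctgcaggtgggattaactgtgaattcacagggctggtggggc
Pou5f1, shared, chr17:35503999-35504099: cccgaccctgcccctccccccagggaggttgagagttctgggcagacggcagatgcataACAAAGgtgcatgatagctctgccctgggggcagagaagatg
Klf2, shared, chr8:72316186-72316286: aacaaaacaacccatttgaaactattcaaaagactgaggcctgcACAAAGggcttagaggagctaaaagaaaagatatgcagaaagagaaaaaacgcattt
The Nanog promoter held a POU half-site and a SOX word 1 base apart, the arrangement of the composite SOX-POU element. Mesp1 held a T word, Hoxb4 a TCF word, Cdx2 a POU half-site, and Lef1 a POU half-site and a CDX word. Among the naive ESC-only sites printed, Sp5 held a POU half-site and an ESRRB word, Esrrb 1 SOX word and Msgn1 2 SOX words. The Pou5f1 and Klf2 shared sites each held 1 SOX word in these bases. At Pou5f1 the bases ATGCAT lay 1 base from the SOX word. The half-site word searched, ATGCNAA, does not match them.

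The gained sites lay at promoters far more often than the lost ones. A summit fell within 1000 bp of the start of a protein-coding gene at 698 CEpiLC-only sites (28.6%), 65 naive ESC-only sites (2.68%) and 493 shared sites (21.4%), against 17.0% of all sites. Naive ESC-only sites were mostly intronic (45.4%) or intergenic (49.3%), whereas 26.6% of CEpiLC-only sites were intronic and 42.8% intergenic. The median distance to the nearest start was 10449 bp for CEpiLC-only, 23826 bp for naive ESC-only and 17094 bp for shared sites.

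Position also differed between the whole libraries. Among the 20000 strongest peaks, the share at promoters was 27.0%, 23.4% and 30.7% in the CEpiLC replicates and 11.5%, 10.8% and 11.3% in the naive ESC replicates. Every CEpiLC library was above every naive ESC library. The means were 27.1% ± 3.66 and 11.2% ± 0.398 (SD, n = 3 each), a difference of 15.9 percentage points (two-sided exact permutation test p = 0.1, the smallest value that 3 against 3 libraries allow; adjusted over 7 shares, 0.350). The mean GC content around the summits differed along with it, at 53.0% ± 1.72 in CEpiLCs and 48.5% ± 0.238 in naive ESCs, and its part in the difference was not tested.

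The deposited fold was lower at gained than at lost sites. The median fold at CEpiLC-only sites was 6.78, 7.99 and 8.42 in the CEpiLC replicates, and at naive ESC-only sites 14.2, 12.5 and 11.9 in the naive ESC replicates. Shared sites reached 11.3, 11.8 and 12.7 in CEpiLCs and 16.5, 14.1 and 13.7 in naive ESCs. In CEpiLCs, promoter sites of the CEpiLC-only class had lower medians (5.74, 7.25 and 7.20) than distal ones (7.32, 8.21 and 8.91). The fold is relative to each library's own background, so its level is not comparable between states as an amount of bound SOX2.

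The strongest sites of each class were ranked by their weakest replicate, and for gained and lost sites only those empty in the complete lists of the other state were ranked. Among sites empty in the complete naive ESC lists, the strongest gained sites included those nearest Vmn2r2, Vwc2, Adh6a and Olfr960, with CEpiLC folds from 15.2 to 55.2. Of these 4 sites, 2 had their summit in a soft-masked repeat, each had a β-catenin peak in all 3 CEpiLC libraries, and each appeared in 2 or 3 of the SOX2-OFF lists introduced below. The Adh6a site had folds of 21.5, 22 and 42.5, and the Vmn2r2 site folds of 22.7, 30.5 and 47.2. The first 6 lost sites lay nearest Gss, Ranbp17, Cdc37l1, Ksr1, Itpka and Taf5l, with naive ESC folds from 31 to 61.1, a β-catenin peak in all 3 naive ESC libraries and no SOX2-OFF peak. The strongest shared sites included those nearest Mtf2, Urm1, Sars, Ube2d2a and Gm10203, and at the Mtf2 promoter the folds were 55.6, 85.9 and 152 in CEpiLCs and 40.7, 47 and 35.4 in naive ESCs.

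Gained and lost sites also differed in how far they were empty in the other state. In the complete naive ESC lists a peak was present at 69.6%, 42.5% and 32.6% of CEpiLC-only sites in replicates 1 to 3, with median folds of 5.56, 4.55 and 4.51. In the complete CEpiLC lists a peak was present at 7.92%, 19.5% and 8.99% of naive ESC-only sites. Thus 447 CEpiLC-only sites and 1732 naive ESC-only sites had no peak at all in the other state. The naive ESC lists were longer, and the number of reads behind each list is unknown, so the part of list length in this contrast was not tested.

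The classes carried over to libraries that had not been used to define them. When sites were defined with 2 replicates of each state, the remaining CEpiLC replicate had a peak at 73.8%, 55.4% and 73.4% of CEpiLC-only sites with replicate 1, 2 or 3 held out, and the remaining naive ESC replicate at 11.3%, 13.8% and 13.9%. For naive ESC-only sites the held-out CEpiLC replicate had a peak at 10.4%, 7.72% and 6.71%, and the held-out naive ESC replicate at 45.9%, 83.4% and 79.1%. The lowest recovery of naive ESC-only sites was in naive ESC replicate 1.

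SOX2 peaks were also compared with the SOX2-TetON line, in which endogenous Sox2 is inactivated (Sox2-/-) and a transgene is driven by doxycycline. In the SOX2-OFF condition, with doxycycline withdrawn during the same differentiation, a peak of the 20000 strongest was present at 32.7%, 35.5% and 50.9% of CEpiLC-only sites, 3.34%, 6.27% and 6.31% of naive ESC-only sites and 63.3%, 74.6% and 77.4% of shared sites. Over all sites the shares in SOX2-OFF were 9.44%, 13.1% and 15%. Of the 2440 CEpiLC-only sites, 835 (34.2%) had a peak in none of the 3 SOX2-OFF lists and 388 (15.9%) in all 3. Only 237 (9.71%) were free of peaks in the complete SOX2-OFF lists, which hold 56263 to 375980 peaks. Over all sites, 77.4% had a peak in none of the 3 lists of 20000 peaks and 4.63% in all 3. In the complete lists, 51.8% of all sites were free of peaks. The paper attributes SOX2 detection in SOX2-OFF cells to a probable persistence of low protein levels after doxycycline removal. The part of SOX2 itself in the CEpiLC-only signal was not tested. The Meis3 and Hoxb4 gained sites had no peak in any of the 3 SOX2-OFF lists of 20000 peaks, whereas the Sp8, Foxa2 and Hes7 gained sites had a peak in all 3.

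In the SOX2-ON condition, with doxycycline maintained, a peak was present at 26.8% ± 3.32 of CEpiLC-only sites and 31.8% ± 2.59 of naive ESC-only sites (SD, n = 3). At naive ESC-only sites this exceeded the 5.31% ± 1.70 of SOX2-OFF in every library, and at CEpiLC-only sites it was below the 39.7% ± 9.79 of SOX2-OFF in every library (two-sided exact permutation test p = 0.1 each, the smallest possible). Over all 64689 sites the shares were 16.8% ± 0.662 in SOX2-ON and 12.5% ± 2.82 in SOX2-OFF (p = 0.1, exact permutation test), so SOX2-ON was also the higher one there. These cells were differentiated as CEpiLCs were, so part of the sites lost from wild-type CEpiLCs carried a peak when the transgene was kept on.

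β-catenin, the transcriptional effector of WNT signalling, followed the same division. In lists of 10930 peaks each, a β-catenin peak was present at 52.5%, 44.5% and 44.6% of CEpiLC-only sites in CEpiLCs and at 10.5%, 5.33% and 8.24% of them in naive ESCs. At naive ESC-only sites the shares were 1.82%, 1.98% and 1.65% in CEpiLCs and 65.4%, 48.5% and 63.6% in naive ESCs. Over all sites the shares were 12.8%, 10.7% and 10.4% in CEpiLCs and 14.3%, 10.1% and 13.6% in naive ESCs. The libraries of both states were fully separated in both classes (two-sided exact permutation test p = 0.1 each, the smallest possible). At shared sites the means were 50.5% ± 4.65 in CEpiLCs and 58.7% ± 7.21 in naive ESCs and the libraries overlapped (p = 0.200, exact permutation test).

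The recognition words differed between the classes. A SOX word lay within 100 bp of the summit at 43.5% of CEpiLC-only, 63.1% of naive ESC-only and 65.1% of shared sites, against 44.6% of all sites and 26.3% of windows shifted by 5000 bp. At least 2 SOX words were present at 8.28%, 25.1% and 21.4% of sites in the same order. The gap was not limited to promoters, since 46.3% of distal CEpiLC-only sites and 63.5% of distal naive ESC-only sites held a SOX word. An ESRRB word, recognised by the orphan nuclear receptor ESRRB of the naive state, was present at 2.21% of CEpiLC-only, 14.8% of naive ESC-only and 5.52% of shared sites, against 5.94% of all sites. CDX and T words, those of the caudal factors, were present at 10.1% and 6.37% of distal CEpiLC-only sites, 6.44% and 3.09% of distal naive ESC-only sites, and 7.50% and 3.44% of all distal sites. With promoters included, the CDX shares were 8.11%, 6.31% and 6.79% in the same order, against 7.62% of the shifted windows. The T shares were 5.04%, 3.14% and 3.21%, against 2.72% of the shifted windows. A TCF word, that of the DNA-binding partners of β-catenin, was present at 15.8%, 14.7% and 16.1% of CEpiLC-only, naive ESC-only and shared sites. In the shifted windows the TCF share was 8.27%. Exact matches to the composite SOX-POU word, a SOX word followed by any base and ATGCNAA, were rare. They lay at 13 CEpiLC-only (0.533%), 6 naive ESC-only (0.248%) and 21 shared sites (0.913%). Among all sites, 136 (0.210%) held the composite word. Elements with other bases, such as ATGCAT beside the SOX word at the Pou5f1 shared site, were not counted. These counts therefore do not give the frequency of composite elements in each class.

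Across whole libraries the words separated the states less often. The ESRRB share was 3.57%, 3.96% and 3.56% in the CEpiLC replicates and 7.22%, 8.77% and 8.96% in the naive ESC replicates, with no overlap (difference −4.61 percentage points, two-sided exact permutation test p = 0.1, adjusted over 7 shares 0.350). The SOX share was 50.6%, 40.5% and 42.4% against 47.4%, 57.6% and 55.9%, and the groups overlapped because CEpiLC replicate 1 was above naive ESC replicate 1 (p = 0.200, exact permutation test). The POU half-site, TCF, CDX and T shares also overlapped between the states, so no difference was detectable with 3 libraries a state. These matches are letters in a window and do not show that a factor was bound.

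**Figure D2:**
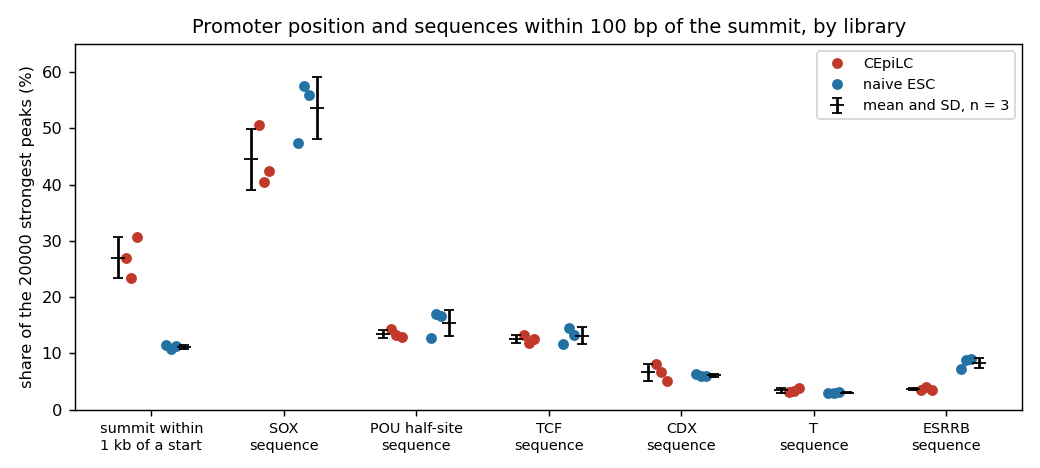
Share (%) of the 20000 strongest SOX2 peaks of each library that lie within 1 kb of a coding gene's start or hold a recognition word within 100 bp of the summit; each coloured point is 1 library and black bars give the mean and SD of 3. CEpiLC and naive ESC libraries do not overlap for promoter position (23.4% to 30.7% against 10.8% to 11.5%) and for the ESRRB word (3.56% to 3.96% against 7.22% to 8.96%).

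Assigning each site to the nearest protein-coding start gave 2059 genes with a CEpiLC-only site (9.43% of 21827 genes), 2022 with a naive ESC-only site (9.26%) and 1887 with a shared site (8.65%). Gained and lost sites met at 365 genes (1.67% of all genes, 17.7% of the genes with a gained site and 18.1% of those with a lost site). Most genes had a single site of a class, 1768 of those with gained and 1705 of those with lost sites. The most gained sites lay nearest Foxb1 (8 sites), Tle3 (7) and Meis1 (6), and the most lost sites nearest Prdm1 and Sik1 (6 each), genes picked after their counts were seen. How much sequence lies nearest to each gene was not corrected for, and the shares for developmental gene lists below are read beside those of all genes without a test. Of 154 listed genes, 63 had a gained and 41 a lost site. With sites required to be absent from the complete lists of the other state, 12 listed genes kept a gained site (1.92% of all genes had one) and 26 a lost site (6.89%). With starts limited to 50 kb, 7.14% of all genes had a gained and 6.89% a lost site.

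Naive pluripotency genes were on the losing side. Of 14 listed genes, 12 had a naive ESC-only site (85.7%, against 9.26% of all genes) and 1, Tbx3, had a CEpiLC-only site. With sites absent from the complete lists of the other state these counts were 10 and 0. A shared site lay nearest 10 of the 14 genes (71.4%, against 8.65% of all genes), so most of them also kept SOX2 peaks. At Tfcp2l1, a grainyhead-like factor of the naive state, the lost site 2292 bp upstream of the start (chr1:118624946-118626243) had folds of 36.7, 43.9 and 33.1 in the naive ESC replicates and a peak in CEpiLC replicate 2 alone, at 5.60. At Esrrb, an intronic site 31739 bp downstream (chr12:86501368-86502471) had folds of 42.7, 22.3 and 22.8 in naive ESCs and no peak in CEpiLCs. At Zfp42, which encodes REX1, a site 13811 bp upstream had folds of 22.5, 33.4 and 33 in naive ESCs and a CEpiLC peak in replicate 2 alone, at 5.47. All 3 sites thus had a peak in every naive ESC library and in at most 1 CEpiLC library.

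At Klf2 the neighbouring peaks fell without disappearing. The shared site 2797 bp upstream (chr8:72315868-72316632) had folds of 6.96, 5.97 and 8.22 in CEpiLCs and 41.3, 65.4 and 81.7 in naive ESCs, a drop with no overlap. A second Klf2 site, 17385 bp downstream, was naive ESC-only, with folds of 12.1, 16.3 and 14.3. Klf4 kept a shared promoter peak 129 bp upstream of its start, at 10.3, 8.77 and 14.4 against 23.3, 7.64 and 10.7, and lost a site 56933 bp downstream, at 11.9, 12.5 and 15.5 in naive ESCs with no CEpiLC peak.

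The core pluripotency genes also kept SOX2 sites. Of 10 genes, 8 had a shared site, 5 a naive ESC-only site and 3 a CEpiLC-only site, the last 2 counts being 4 and 0 with sites absent from the complete lists of the other state. At Pou5f1 the shared site 1969 bp upstream (chr17:35503676-35505616) had folds of 15.5, 21 and 27.1 in CEpiLCs and 63.3, 42.5 and 36.1 in naive ESCs. At Nanog, a homeobox factor of pluripotency, the promoter site 57 bp upstream (chr6:122707026-122707771) had folds of 10.2, 17.3 and 17.1 against 26.6, 21 and 19.4. In both genes every naive ESC library was above every CEpiLC library. Around Sox2 itself there were 4 shared and 3 naive ESC-only sites, and no CEpiLC-only site. The lost ones lay 47406, 94963 and 114362 bp downstream, and the farthest had folds of 15.2, 9.75 and 11.4 in naive ESCs with no CEpiLC peak.

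Primed epiblast genes split evenly, with 5 of 13 having a CEpiLC-only site and 5 a naive ESC-only site, or 1 and 2 with the stricter absence. Zic2, a zinc finger factor of the primed epiblast, gained an intronic site 2126 bp downstream with CEpiLC folds of 7.11, 7.96 and 6.19 and no naive ESC peak. The de novo DNA methyltransferase gene Dnmt3a lost an intronic site 68096 bp upstream of the nearest start, with naive ESC folds of 31.3, 18.8 and 21.1 and no CEpiLC peak. Otx2 kept 3 shared sites and lost 1. Fgf5, the FGF ligand of the primed epiblast, had a single site, in its intron 1472 bp downstream, with overlapping folds of 6.52, 8.35 and 13.9 in CEpiLCs and 9.72, 8.49 and 12.3 in naive ESCs.

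Caudal epiblast genes were on the gaining side. Of 16 listed genes, 8 had a CEpiLC-only site (50%, against 9.43% of all genes) and 3 a naive ESC-only site, or 3 and 2 with sites absent from the complete lists of the other state. Meis3, a TALE homeobox cofactor of HOX proteins, gained a site 1087 bp upstream (chr7:16174041-16174452) with CEpiLC folds of 13.3, 17.2 and 12.7 and no peak in any naive ESC list. At Sp8, a zinc finger factor of the tail bud, a site 4314 bp downstream had CEpiLC folds of 23.7, 26.7 and 26, and a naive ESC peak in replicate 1 alone at 4.12. At Fgf8, an FGF ligand of the streak and tail bud, a site 19649 bp downstream had folds of 11, 11.1 and 35.8 and a naive ESC peak in replicate 1 alone at 3.33. These gained sites were weak or unlisted in naive ESCs in all 3 genes.

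At Cdx2, SOX2 occupancy was added beside an existing site. The shared intronic site 2251 bp downstream of the start (chr5:147303804-147305907) had overlapping folds of 16.2, 29.2 and 34.4 in CEpiLCs and 17.6, 26.6 and 27.3 in naive ESCs. Gained sites lay 136 bp and 2136 bp upstream, with CEpiLC folds of 6.53, 8.41 and 5.97 at the nearer and 8.52, 5.96 and 5.83 at the farther one. Both had low naive ESC peaks in replicates 1 and 3, between 3.41 and 4.61. Sp5, a zinc finger target of WNT signalling, went against the list, with a lost site 10093 bp downstream at 24.9, 25.7 and 10.8 in naive ESCs and 1 CEpiLC peak at 5.23.

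Hox genes gained sites and lost none. Of 22 listed genes, 9 had a CEpiLC-only site (40.9%) and 0 a naive ESC-only site, and the 15 gained sites lay in all 4 clusters. With the stricter absence the counts were 3 and 0. The strongest by its weakest replicate was 1746 bp upstream of Hoxb4 (chr11:96316161-96317119), with CEpiLC folds of 15.4, 15.3 and 12.2 and a naive ESC peak in replicate 1 alone at 8.92. At Hoxa5 an intronic site 4884 bp downstream had CEpiLC folds of 14, 10.8 and 13.1 and a replicate 1 peak at 7.64 in naive ESCs. At Hoxb9, a trunk HOX gene, none of 10 sites entered a class, and its promoter site had folds of 15.1, 11.7 and 10.3 against 12.7, 6.31 and 4.77. The TALE cofactors of HOX proteins also gained, with 6 of 8 genes having a CEpiLC-only site and 1, Tgif1, a naive ESC-only site, or 3 and 1 with the stricter absence. Meis1 had folds of 10.9, 10.1 and 10.4 in CEpiLCs at a site 140993 bp downstream, where the naive ESC folds were 6.12, 4.88 and 4.74.

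Primitive streak and mesoderm genes gained more often than they lost, at 8 against 3 of 16 genes. This order did not hold when sites had to be absent from the complete lists of the other state. That left 0 genes with a gained and 1, Bmp4, with a lost site, where 1.92% and 6.89% of all genes kept one. Mesp1, a basic helix-loop-helix factor of early mesoderm, gained a site 4336 bp downstream (chr7:79789217-79789644) with CEpiLC folds of 20.1, 17.7 and 19.6 and a naive ESC peak in replicate 1 alone at 6.18. At T, the shared site 4309 bp upstream had overlapping folds of 16.9, 13.9 and 13.5 in CEpiLCs and 14, 13.8 and 14.5 in naive ESCs. A gained site 25378 bp upstream of T had CEpiLC folds of 6.04, 9.42 and 8.55 and a naive ESC peak in replicate 1 alone at 5.63. Foxa2, a forkhead factor of the anterior streak and endoderm, gained a site 5021 bp downstream whose folds of 18.5, 21 and 16.2 lay above naive ESC folds of 9.94, 5.52 and 4.22. In the opposite direction, Msgn1, a factor of presomitic mesoderm, lost a site 7669 bp upstream (chr12:11215694-11217012) with naive ESC folds of 30.9, 38.1 and 40 and 1 CEpiLC peak at 4.69. Tbx6 had 3 sites and none entered a class. Its promoter site 665 bp upstream had peaks in CEpiLC replicates 2 and 3, at 5.37 and 6.11, and in no naive ESC list.

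Neural genes had gained sites at 8 and lost sites at 6 of 16 genes, and at 0 and 3 genes when sites had to be absent from the complete lists of the other state. Pax6, a paired homeobox neural factor, gained a site 57554 bp upstream with CEpiLC folds of 16.3, 9.86 and 9.59 and a naive ESC peak in replicate 1 alone at 6.12. Pax3 had a gained intronic site at 9.33, 7.29 and 9.31 in CEpiLCs and a lost intronic site at 17.3, 16.6 and 9.47 in naive ESCs.

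Among 16 WNT genes, 9 had a CEpiLC-only and 3 a naive ESC-only site, and no gene had both. With sites absent from the complete lists of the other state, 1 gene, Nkd1, kept a gained site and 2, Tcf7 and Tcf7l1, a lost site. Of all genes, 1.92% kept a gained and 6.89% a lost site under this requirement. The receptor gene Fzd10 gained a site 76049 bp upstream with CEpiLC folds of 19.5, 18.3 and 22.4 and a naive ESC peak at 2.82 in replicate 1 alone. Tcf7l2, a TCF/LEF factor, gained a promoter site 203 bp upstream at 17.4, 15.5 and 14.5, with 1 naive ESC peak at 3.98. The TCF/LEF repressor gene Tcf7l1 lost an intronic site 18672 bp downstream, at 15, 11.5 and 7.77 in naive ESCs and with no CEpiLC peak. Of 11 FGF and ERK feedback genes, 6 had a CEpiLC-only and 2 a naive ESC-only site, and 1 and 0 under the same requirement. The receptor gene Fgfr1 lost a site 63534 bp upstream, at 25.9, 39.8 and 40.6 in naive ESCs and 3.64 in CEpiLC replicate 2 alone.

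Erythroid, hepatic, muscle and other differentiated-cell genes served as a comparison list. Of 12 genes, 0 had a CEpiLC-only site and 1, Apoa1, a naive ESC-only site, where 9.43% and 9.26% of all genes did.

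**Figure D3:**
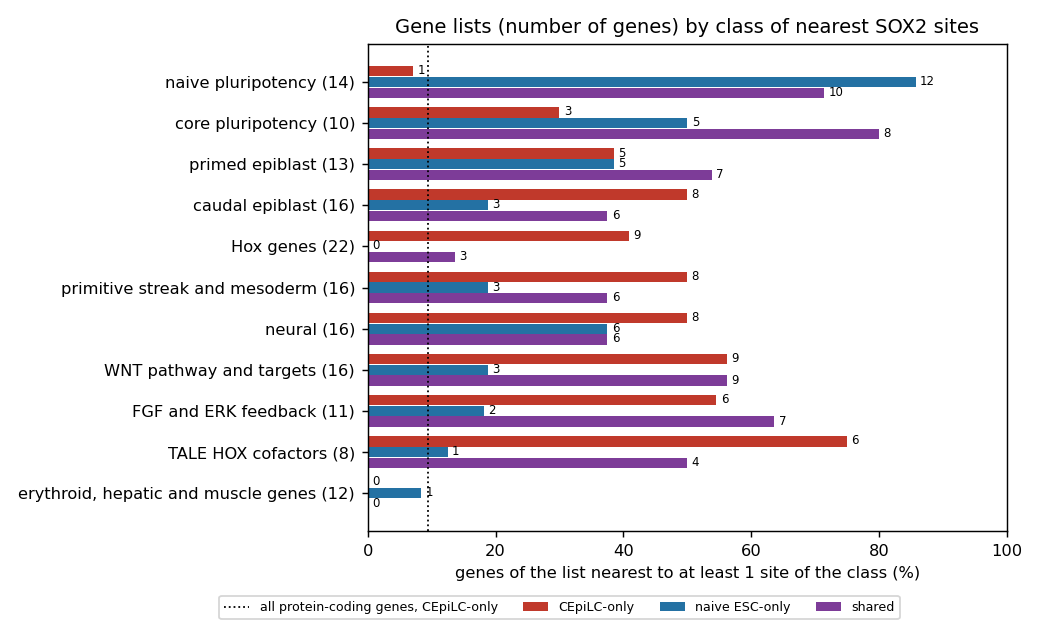
Share (%) of the genes of each list (number of genes in brackets) that are nearest to at least 1 site of a class, with the number of genes at each bar; the dotted line is the share of all protein-coding genes with a CEpiLC-only site (9.43%). Naive ESC-only sites lie nearest 12 of 14 naive pluripotency genes and 0 of 22 Hox genes.

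**Figure D4:**
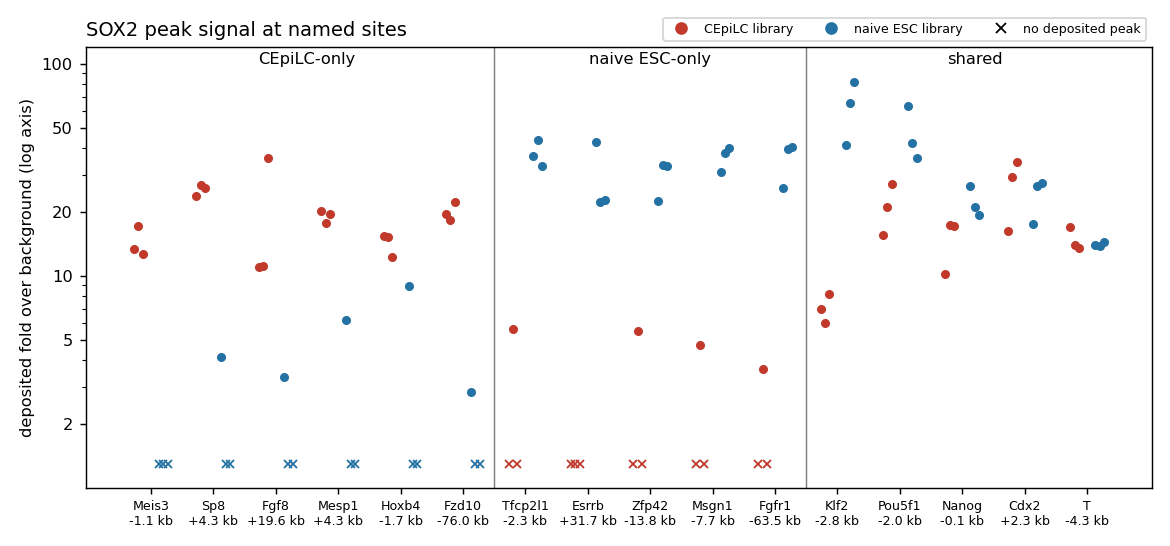
Fold over background (log axis) of the SOX2 peak in each library at 16 named sites, grouped by class; red points are CEpiLC and blue points naive ESC libraries, and crosses mark libraries with no peak. Distances from the nearest start are given under the gene names. At the Klf2 shared site the CEpiLC folds (5.97 to 8.22) lie far below the naive ESC folds (41.3 to 81.7), while at T and Cdx2 the states overlap.

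Signal was then tested at the 6787 sites with a peak in the complete lists of all 6 libraries, using the log2 fold centred on each library's median. With limma, 821 sites (12.1%) were higher and 763 (11.2%) lower in CEpiLCs at an adjusted p below 0.05. Centring removed a difference of −0.14 on the log2 scale between the mean library medians of the states, CEpiLC minus naive ESC. Without centring the counts were 550 higher and 919 lower. The counts were 385 and 424 without replicate 2 of both states and 329 and 367 without replicate 3. The tested sites included 401 CEpiLC-only and 24 naive ESC-only sites, since a site outside the 20000 strongest peaks of a library can still be in its complete list, and 162 of the higher and 0 of the lower sites were CEpiLC-only. Gained sites entered this test far more often than lost ones, and the naive ESC lists were the longer ones.

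Sites higher and sites lower in CEpiLCs differed from each other in position and sequence. Promoters made up 26.2% of the sites higher in CEpiLCs, 5.90% of those lower and 27.3% of all tested. An ESRRB word was present at 3.05% of the higher, 11% of the lower and 4.66% of all tested sites. A SOX word was present at 58.1%, 68.8% and 57.6% in the same order, and the composite SOX-POU word at 14, 3 and 47 sites.

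Hoxb1 had the steepest rise. At its promoter, 163 bp upstream of the start (chr11:96364904-96366967), the folds were 34.8, 79.3 and 89.5 in CEpiLCs and 7.73, 6.10 and 4.48 in naive ESCs, a log2 difference of 3.54 ± 0.36 (SE; limma adjusted p = 2.33e-07). The next 4 by p-value lay 17577 bp upstream of Cited2 (3.26 ± 0.33), at the Zfp9 promoter (2.98 ± 0.33), 19421 bp downstream of Sox9 (3.22 ± 0.37) and in an intron of Cdh4 (2.92 ± 0.34). In each of these 5 the lowest CEpiLC library was above the highest naive ESC library.

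The steepest fall lay in an intron of Tcf12, a basic helix-loop-helix factor, where the folds were 4.67, 4.92 and 3.99 in CEpiLCs and 65.7, 41.2 and 44.2 in naive ESCs (log2 difference −3.31 ± 0.33, SE; limma adjusted p = 2.33e-07). The next 4 by p-value lay 237765 bp upstream of Tle4 (−3.04 ± 0.33), in an intron at Gm26992 (−2.88 ± 0.33), 164054 bp downstream of Cbln4 (−2.92 ± 0.34) and 65825 bp downstream of Zfp354a (−2.81 ± 0.33). The groups did not overlap at any of them.

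By the same test, 11.2% of all tested sites were lower and 12.1% higher. Naive pluripotency genes had 9 lower and 1 higher of 23 sites tested, with a median difference of −0.67 against 0.10 over all sites. The lower ones included the Klf2 site shown above (−2.97 ± 0.36, limma adjusted p = 2.15e-06) and a site 211176 bp downstream of Klf5 (−2.26 ± 0.36). Dppa3, which encodes STELLA, had sites in both directions, and the higher one, 28924 bp downstream, had folds of 39.3, 47.8 and 31.6 in CEpiLCs and 13.8, 8.78 and 11.2 in naive ESCs (1.96 ± 0.33, limma adjusted p = 8.86e-05). These listed sites were picked by their p-values, after the values were seen.

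Core pluripotency genes had 9 lower and 3 higher of 41 sites, against 11.2% lower and 12.1% higher of all tested sites. Downstream of Sox2, 3 sites fell, the most at 107673 bp, where the folds were 7.33, 5.47 and 4.80 in CEpiLCs and 27.7, 24.1 and 24.9 in naive ESCs (−2.01 ± 0.33, limma adjusted p = 6.77e-05). The shared sites of Sox2 nearer the gene, at 3656 bp (−0.52 ± 0.34, limma adjusted p = 0.285) and 18238 bp (−0.50 ± 0.35, limma adjusted p = 0.313), did not pass the test. The Pou5f1 site 1969 bp upstream was lower by −1.02 ± 0.33 (limma adjusted p = 0.0258), a call lost when any 1 replicate pair was left out. The Nanog promoter (−0.48 ± 0.33, limma adjusted p = 0.321) did not pass, while the Nanog site 4440 bp upstream was lower (−1.17 ± 0.33, limma adjusted p = 0.0110).

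Caudal epiblast genes had 5 higher and 0 lower of 18 sites, and Hox genes 4 higher and 0 lower of 12. Of all tested sites, 12.1% were higher and 11.2% lower. The Sp5 promoter had folds of 39.4, 38.4 and 36.5 in CEpiLCs and 10.4, 19.5 and 10.5 in naive ESCs (1.70 ± 0.35, limma adjusted p = 0.000667), in a gene that also lost a site 10093 bp downstream. The Wnt5b promoter had folds of 27.9, 39.3 and 46.7 against 18, 11.2 and 12 (1.61 ± 0.33, limma adjusted p = 0.000708). At Hoxa2 a site 3970 bp upstream had folds of 11.1, 15.4 and 21.6 against 3.87, 7.64 and 4.41 (1.75 ± 0.36, limma adjusted p = 0.000694). The shared sites of Cdx2 (0.26 ± 0.36) and T (0.20 ± 0.33 and −0.17 ± 0.35) did not pass the test, and their sign was not stable when replicates were left out.

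The other lists held changes in both directions or few changes, beside 12.1% higher and 11.2% lower of all tested sites. Their counts were not tested against these shares. Primitive streak genes had 4 higher and 2 lower of 14 sites, with a higher site 88140 bp and a lower site 71871 bp upstream of Eomes, a T-box factor of the early streak (1.62 ± 0.33 and −1.54 ± 0.34). WNT genes had 6 higher, among them 1 upstream of Nkd1, a feedback inhibitor (1.5 ± 0.33), and 3 lower, among them 2 at Tcf7l1 (−1.44 ± 0.34 and −1.37 ± 0.39), of 30 sites. FGF and ERK feedback genes had 5 higher and 3 lower of 35. At the ERK phosphatase genes, a site 188243 bp downstream of Dusp6 was higher (2.34 ± 0.36). A site 74414 bp upstream of Dusp4 was lower (−2.32 ± 0.35). Dusp6 had sites in both directions, since an intronic site 2236 bp downstream was naive ESC-only. Its folds were 12.3, 14.3 and 8.56 in naive ESCs and 4.05 in CEpiLC replicate 3 alone. Primed epiblast genes had 3 higher and 5 lower of 27, with 2 higher sites upstream of Otx2 (1.34 ± 0.35 and 1.18 ± 0.35) and 2 lower intronic sites in Etv5 (−1.69 ± 0.35 and −1.43 ± 0.33). Neural genes had 2 higher and 0 lower of 16, and TALE cofactors 3 and 3 of 23. Of the differentiated-cell genes only 1 site was tested, and it did not pass.

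**Figure D5:**
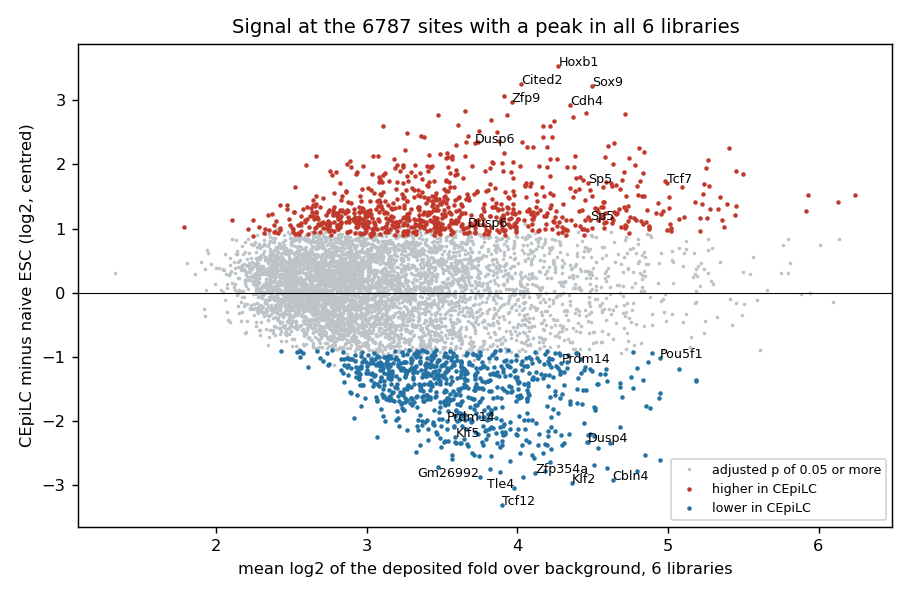
Difference in SOX2 signal between CEpiLC and naive ESC libraries (y axis, log2 of the fold, centred on each library's median) against the mean log2 fold of the 6 libraries (x axis), for the 6787 sites with a peak in all 6; coloured points pass limma at an adjusted p below 0.05. The points reach from −3.31 (Tcf12) to 3.54 (Hoxb1).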

How the data were processed

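SOX2 ChIP-seq libraries were single-end reads of 76 bp. The authors aligned them to mm10 with BWA in an nf-core pipeline and called narrow peaks with MACS2 (q below 0.05) in each library separately; the input used for each library and the read depth are not given in the sources used here, so precision rests on the replicates. The deposited lists hold a score, a fold (ratio to background), a −log10 p-value and a −log10 q-value for each peak. The 6 lists held 1324631 peaks, and no lists were identical. Each library was cut to its 20000 strongest peaks by p-value, peaks sharing at least 1 bp were merged, and summits were assigned to the nearest protein-coding start of the GENCODE annotation (promoter, within 1000 bp). Words were searched within 100 bp of the summit. The study compared read counts over consensus peaks, which were not used here. Shares were compared by two-sided exact permutation tests. Signal was tested with limma 3.58.1 (R 4.3.3, Benjamini-Hochberg adjustment) on log2 fold centred per library, checked on simulated data, without a replicate block. Replicates are labelled biological, and the paper states that the triplicates of each condition came from separate experiments. Named sites were, for each gene list, up to 4 members per direction with the best rank in their weakest library, the 6 best of each class, 5 limma sites per direction and 15 genes always named. Some sites that this rule names are not reported here. The members and lists were chosen with earlier results of these data known. Alternatives were other list lengths, a minimum fold, summit windows, window and promoter sizes, scalings, and left-out replicates. Python 3.11.15 was used.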

Additional observations from a re-analysis of the deposited data

How the results depend on the processing

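With all deposited peaks there were 1278 CEpiLC-only, 10695 naive ESC-only and 7068 shared sites, and with 10000 peaks per library 1365 shared sites. Leaving out 1 replicate pair gave 3819 to 5351 CEpiLC-only, 3160 to 6110 naive ESC-only and 2839 to 3443 shared sites, and leaving out naive ESC replicate 1 alone, an alternative added after seeing the data, 2813 CEpiLC-only and 5475 naive ESC-only sites. With fewer lists to meet, the rule for each class was looser, so these counts are not comparable with those of all 6 libraries. Requiring absence from the complete lists of the other state left 447 CEpiLC-only sites and reduced the listed genes with a CEpiLC-only site from 63 to 12 and with a naive ESC-only site from 41 to 26; a limit of 50 kb to the start also gave 26. In limma, normal scores of the −log10 p-value gave 435 higher sites, peaks in all 6 equal-length lists 464 higher and 399 lower of 2299, and left-out replicate pairs 329 to 867 higher and 367 to 937 lower; without naive ESC replicate 1 alone there were 1032 higher and 1039 lower, and without centring, also added after seeing the data, 37.4% of calls were higher in place of 51.8%. Same-numbered libraries did not deviate together (correlations 0.0121, 0.0112 and 0.0146), and the replicate block gave 916 higher and 821 lower and changed no call among the named sites. The promoter and ESRRB differences kept their sign under every alternative run, at 13.0 to 18.4 and −6.60 to −1.57 percentage points. The sign of others turned: with all deposited peaks the SOX difference was 0.993, the POU half-site 0.0355, TCF 0.707 and CDX −0.911 points, with 5000 peaks TCF was 1.33, within 250 bp CDX was −0.320, and with replicate pairs left out TCF ranged from −1.62 to 0.620 and CDX from −0.0875 to 1.23. Among uncalled sites, the Klf4 promoter turned to 0.14 (normal scores) and 0.12 (equal-length lists), and left-out replicates gave −0.23 to 0.31 for Klf4, −0.44 to 0.24 for Nodal, −0.06 to 0.39 and −0.48 to 0.19 for the upstream and downstream T sites and −0.05 to 0.28 for Cdx2; without replicate 1 the downstream T site was at 0.14. Leaving out replicate 2 or 3 ended 14 and 16 calls among 60 tested named sites. The cause of these shifts was not tested. Depth is unknown, so a missing peak is not an absence of binding.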
